A study of Mus musculus with 9 samples.

Results

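Glucocorticoid response genes were examined in eosinophils sorted from mouse quadriceps muscle. The set holds 9 genes of 54146 in the deposited table, taken by symbol. They are Nr3c1, the glucocorticoid receptor, and the receptor-responsive genes Fkbp5, Tsc22d3, Per1, Klf9, Sgk1, Mt1, Mt2 and Zbtb16. All 9 were among the 15886 genes kept by the filter on low counts.

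The libraries form 3 groups of 3, named by the sample titles. The mdx_IL5Tg group combines the mdx background with an interleukin-5 transgene, the mdx group has the dystrophin-deficient background that models Duchenne muscular dystrophy, and the IL5Tg group is titled with the transgene only. The strain label nevertheless reads mdx for all 9 samples, IL5Tg included, so the titles and that label conflict. All samples are labelled adult. The labels name no steroid treatment and no hour of collection, and the promoter of the transgene is not given in the sources used here. The sort gate took live CD45+ Siglec-F+ cells that lacked CD11c, Gr1 and MHCII, and their total RNA was sequenced.

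Glucocorticoids are adrenal steroids that enter cells and bind the receptor, which is held in the cytoplasm by chaperones and then moves to the nucleus. There it binds glucocorticoid response elements and induces genes, several of which limit inflammation, and it restrains genes driven by NF-kappaB and AP-1. Eosinophils are known for dying in response to glucocorticoids, and glucocorticoids are used to treat both eosinophilic disease and Duchenne muscular dystrophy. Several of the genes also answer to other signals: Per1 to the circadian clock, Mt1 and Mt2 to zinc and other metals, and Sgk1 to osmotic stress.

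Promoter windows of 3 genes are shown because each holds the element of a signal that the gene is known to answer to, the receptor for Sgk1 and metals for Mt1 and Mt2. RefSeq promoters were found for 7 of the 9 genes, all but Nr3c1 and Zbtb16, in 15 windows of 250 bases before an annotated start (build GRCm38.p6). Capitals mark matches on either strand to the metal response element TGCACNC or TGCGCNC in the Mt2 and Mt1 windows, and to the glucocorticoid response element, AGAACA and TGTTCT with any 3 bases between, in the Sgk1 window. All are printed on the plus strand, which is the strand of these genes. The Mt2 window is chr8:94172368-94172617, the Mt1 window is chr8:94178839-94179081 without the bases that lie in an annotated Mt1 exon, and the Sgk1 window is chr10:21993640-21993889.
Mt2: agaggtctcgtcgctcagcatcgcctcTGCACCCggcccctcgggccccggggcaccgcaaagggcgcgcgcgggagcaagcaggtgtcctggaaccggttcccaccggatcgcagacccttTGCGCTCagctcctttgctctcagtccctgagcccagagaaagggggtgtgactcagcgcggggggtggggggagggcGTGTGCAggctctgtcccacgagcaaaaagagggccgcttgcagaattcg
Mt1: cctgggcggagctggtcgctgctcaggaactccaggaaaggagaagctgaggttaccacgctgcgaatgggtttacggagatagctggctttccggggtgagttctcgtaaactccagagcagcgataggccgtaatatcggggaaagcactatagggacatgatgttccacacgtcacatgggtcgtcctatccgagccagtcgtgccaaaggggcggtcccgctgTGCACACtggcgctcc
Sgk1: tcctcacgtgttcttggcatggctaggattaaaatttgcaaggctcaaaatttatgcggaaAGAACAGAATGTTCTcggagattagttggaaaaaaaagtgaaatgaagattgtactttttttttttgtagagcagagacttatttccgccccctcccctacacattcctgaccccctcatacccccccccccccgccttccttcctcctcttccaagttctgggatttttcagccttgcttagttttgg

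The Mt2 window held 3 metal response element matches and the Mt1 window held 1, as did 1 Per1 window. Of 32851 promoter windows of this length in the RefSeq table, 21.4% held at least 1 such match and 1.26% held at least 3. The counts depend on the start used, because bases past it were not searched. The RefSeq start of Mt2 lies 46 bases before its GENCODE start, and 7 bases of the Mt1 window lie in an annotated Mt1 exon. The glucocorticoid element was present in 3 of the 32851 windows (0.0091%), and among the 15 windows of the response genes it was found in 1 only, at 1 of 6 annotated Sgk1 starts, 189 to 175 bases before that start. This window lies inside the gene, 111456 bases past its first base, and the other Sgk1 windows held no match. A match is a run of letters and not a measured binding site. Only these exact letters within 250 bases before a start were searched, so a window without a match does not show that the gene lacks a site.

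Library totals ranged from 26752800 to 58368300 expected counts. Il5, the gene carried by the transgene, lay between 664 and 724 CPM (counts scaled to a common library size with TMM factors) in mdx_IL5Tg, between 0.265 and 0.402 CPM in mdx and between 317 and 523 CPM in IL5Tg. All 12 eosinophil markers were detected, with summed levels of 5193 to 5652 CPM in mdx_IL5Tg, 2179 to 2977 CPM in mdx and 5752 to 15990 CPM in IL5Tg. These 12 did not move together. In edgeR's test of mdx against IL5Tg, 7 were lower and 5 did not pass. Prg2, 1 of the 7, averaged 226 CPM in mdx and 3766 CPM in IL5Tg. Of the 5, Il5ra averaged 58.1, 61.1 and 60.2 CPM in mdx_IL5Tg, mdx and IL5Tg, and Gata1 59.4, 40.4 and 39.6 CPM. In mdx_IL5Tg against mdx, 3 were higher and 9 did not pass. Macrophage and fibroblast markers were also present, and their sums were highest in mdx. The 12 macrophage markers summed to 340 to 459 CPM in mdx_IL5Tg, 629 to 1038 CPM in mdx and 219 to 252 CPM in IL5Tg. Csf1r alone averaged 329, 395 and 206 CPM in these groups. In mdx_IL5Tg against mdx, 10 of the 12 were lower, beside 11.5% of all genes, with a median log2 fold change of -2.20, and Csf1r did not pass. In mdx against IL5Tg, 10 were higher, beside 11.8%, with a median of 4.13. The 10 fibroblast markers summed to 1310 to 3684 CPM in mdx_IL5Tg, 4756 to 11340 CPM in mdx and 1243 to 2634 CPM in IL5Tg. They did not all move together. In mdx_IL5Tg against mdx, 8 were lower and 1, Gsn, was higher, beside 11.5% and 10.1% of all genes. Gsn averaged 603, 293 and 313 CPM in mdx_IL5Tg, mdx and IL5Tg. Library mdx S5 had the highest fibroblast sum and 0.383% of its counts on mitochondrial genes, against 1.28% to 2.29% in the other libraries. The 10 measured neutrophil markers summed to 116 to 168 CPM in mdx_IL5Tg, 12.7 to 337 CPM in mdx and 421 to 1337 CPM in IL5Tg. Library IL5Tg S7 was highest in these and in the proliferation markers, at 595 CPM. The 7 endothelial markers summed to 287 to 621 CPM in mdx_IL5Tg, 625 to 767 CPM in mdx and 390 to 568 CPM in IL5Tg. In mdx against IL5Tg, 2 of them were higher and 5 did not pass. The 11 muscle fibre markers summed to 20.2 to 25.7 CPM in mdx_IL5Tg, 32.6 to 67.8 CPM in mdx and 7.97 to 11.6 CPM in IL5Tg. The 9 that passed the filter were all higher in mdx than in IL5Tg, beside 11.8% of all genes. The part of cells other than eosinophils in any of the comparisons between groups, mdx_IL5Tg against mdx included, was not tested. In bulk RNA, fewer cells of a type and less RNA per cell cannot be told apart.

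**Figure D1:**
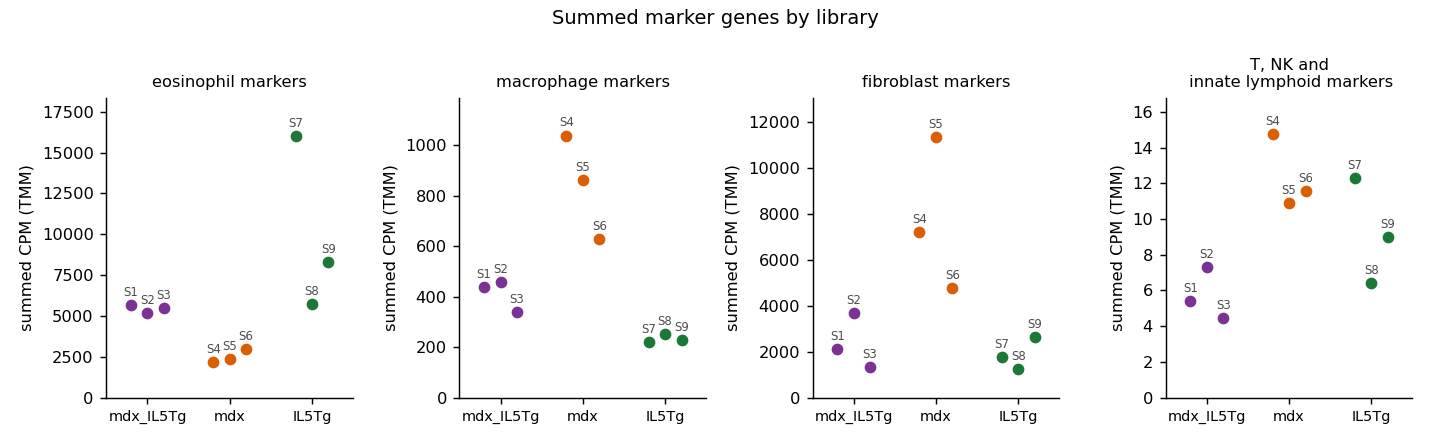
Summed CPM (TMM-scaled, linear axes from 0) of the eosinophil, macrophage, fibroblast and lymphoid marker lists in each library, 1 point per library. The mdx libraries have the lowest eosinophil sums (2179 to 2977 CPM) and the highest macrophage (629 to 1038 CPM) and fibroblast sums (4756 to 11340 CPM). Of the 12 eosinophil markers, 7 were lower and 5 did not pass in edgeR's test of mdx against IL5Tg.

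Among the 9 genes, Per1 and Tsc22d3 were higher and Zbtb16 and Mt2 lower in mdx_IL5Tg than in mdx libraries. Sgk1 was higher in mdx_IL5Tg than in IL5Tg. Zbtb16 was higher in mdx than in IL5Tg. The receptor, Fkbp5, Klf9 and Mt1 did not pass the test in any of the 3 comparisons.

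In mdx_IL5Tg against mdx, 4 of 9 genes passed an adjusted p of 0.05 in edgeR's quasi-likelihood test, 2 higher and 2 lower, where 21.6% of all genes passed, 10.1% higher and 11.5% lower. The median log2 fold change was -0.25 over the 9 genes and -0.13 over all genes tested. With library totals in place of TMM scaling, 6 passed, 1 higher and 5 lower, and the median of all genes was -0.46. Against IL5Tg, 1 of the 9 passed in mdx_IL5Tg and was higher, where 7.22% of all genes passed, 4.35% higher and 2.87% lower. The medians were 0.047 over the 9 genes and -0.050 over all genes. For mdx against IL5Tg, 1 of 9 passed and was higher, where 20.8% of all genes passed, 11.8% higher and 8.96% lower, with medians of 0.22 and 0.013. The 3 comparisons share their groups, so they are not independent.

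The groups did not overlap for 4 of the 9 genes in mdx_IL5Tg against mdx, where 42.0% of all genes had no overlap. They did not overlap for 2 genes in mdx_IL5Tg against IL5Tg, beside 35.9% of all genes, and for 2 in mdx against IL5Tg, beside 41.9%.

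**Figure D2:**
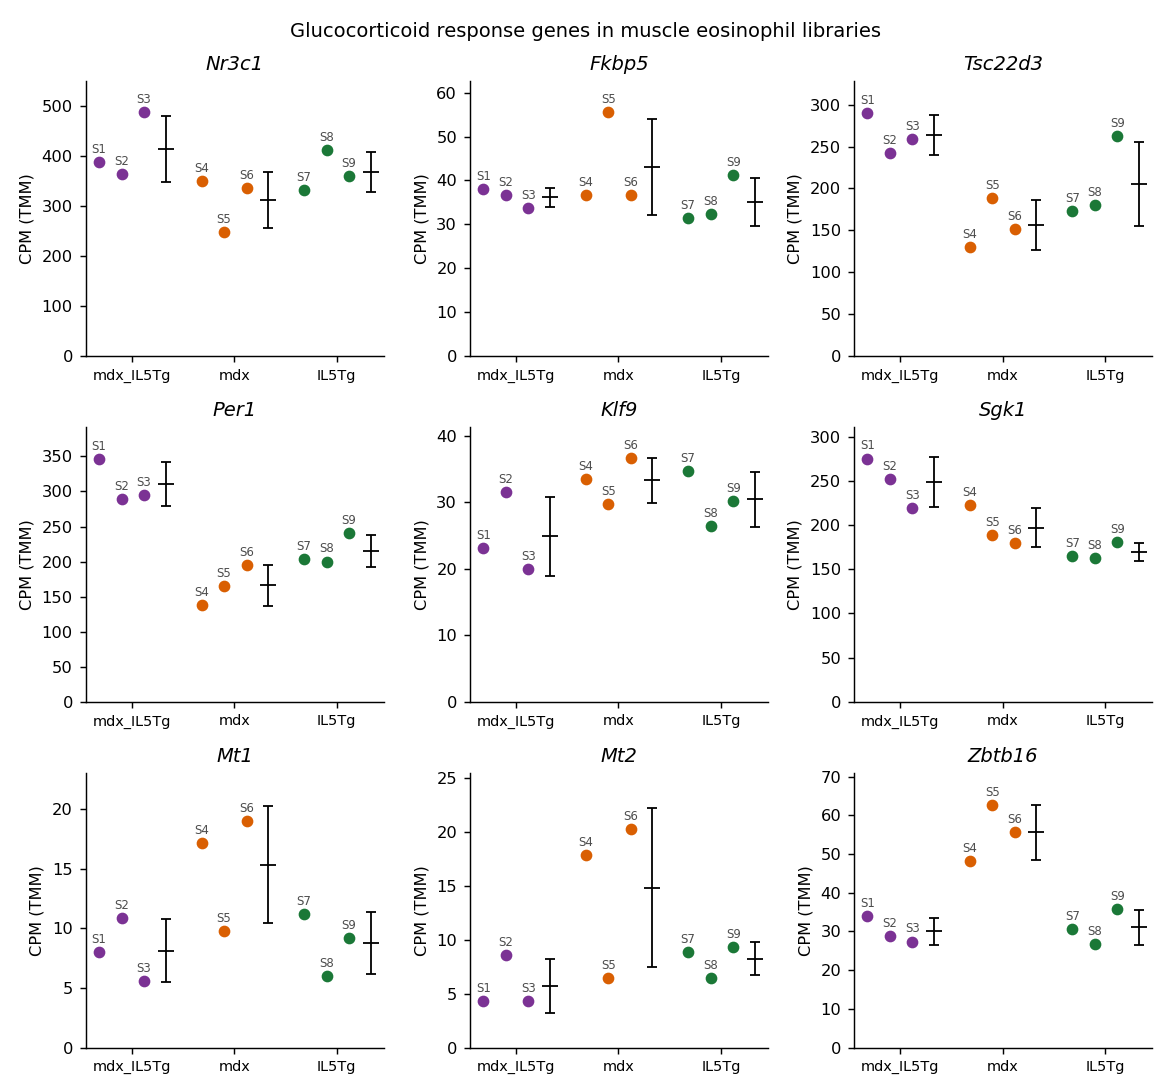
Level of each of the 9 genes (CPM scaled by TMM, linear axes from 0) in the 3 libraries of mdx_IL5Tg, mdx and IL5Tg, with the mean and SD (n = 3) beside the points. Per1 is at or above 289 CPM in every mdx_IL5Tg library and at or below 241 CPM in the others, and Zbtb16 is at or above 48.3 CPM in every mdx library and at or below 35.7 CPM in the others.

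Set against gene length, 4 genes stood above the other 5. Levels per kilobase of exon, averaged over the 9 libraries, were 48.0 CPM per kb for Tsc22d3, 47.5 for Nr3c1, 41.8 for Sgk1 and 40.9 for Per1. They were 16.3 CPM per kb for Mt2, 8.64 for Mt1, 7.36 for Zbtb16, 6.14 for Klf9 and 4.02 for Fkbp5. The Mt1 length used, 1246 bases, is its whole annotated span, while the Mt2 length is 588 bases. The order of Mt2 and Mt1 per kilobase rests on these lengths. Before division by length it was reversed, with means of 10.8 CPM for Mt1 and 9.61 CPM for Mt2. Within mdx_IL5Tg, Per1 at 55.1 ± 5.56 CPM per kb, Nr3c1 at 53.8 ± 8.60 and Sgk1 at 50.8 ± 5.72 (SD, n = 3) differed between neighbours in the order by less than their spread. Tsc22d3, at 60.7 ± 5.60 CPM per kb, was above Per1 by slightly more than 1 SD. Mt2 and Mt1 in mdx, at 25.2 ± 12.6 and 12.3 ± 3.94 CPM per kb, differed by about 1 SD of Mt2. Among the lower genes in mdx_IL5Tg, Mt2 at 9.75 ± 4.24 CPM per kb, Mt1 at 6.54 ± 2.12, Zbtb16 at 5.68 ± 0.647 and Klf9 at 5.18 ± 1.23 also differed from their neighbours by less than the larger SD, and Fkbp5 was lowest at 3.82 ± 0.227.

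Nr3c1 (chr18:39410545-39519421, minus strand; all gene positions are from GENCODE M21 on GRCm38) encodes the receptor. It had 389, 364 and 489 CPM in mdx_IL5Tg, against 351, 249 and 337 CPM in mdx and 333, 413 and 359.95 CPM in IL5Tg. Every mdx_IL5Tg library was above every mdx library, the nearest pair being 364 and 351 CPM, and the IL5Tg libraries overlapped both groups. The log2 fold change of mdx_IL5Tg against mdx was 0.41 ± 0.17 (SE) and did not pass (edgeR adjusted p = 0.114). It was 0.17 ± 0.17 against IL5Tg (edgeR adjusted p = 0.566). Set against IL5Tg, mdx gave -0.24 ± 0.17 (edgeR adjusted p = 0.337).

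Fkbp5 (chr17:28399094-28517527, minus strand) encodes a co-chaperone that lowers the receptor's affinity for hormone and is itself induced by it, forming a feedback loop. Its levels were 38.0, 36.7 and 33.8 CPM in mdx_IL5Tg, 36.7, 55.7 and 36.7 CPM in mdx, and 31.5, 32.3 and 41.3 CPM in IL5Tg. All libraries lay close together except mdx S5, the library with the highest fibroblast sum, which was the highest of the 9. The log2 fold change of mdx_IL5Tg against mdx was -0.25 ± 0.18 with an edgeR adjusted p of 0.362, and -0.017 without mdx S5. Against IL5Tg it was 0.047 ± 0.18 for mdx_IL5Tg (edgeR adjusted p = 0.900) and 0.30 ± 0.18 for mdx (edgeR adjusted p = 0.273).

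Per1 (chr11:69095217-69109960, plus strand) is a core repressor of the circadian clock and a direct receptor target. It had 346, 289 and 295 CPM in mdx_IL5Tg, against 137, 166 and 195 CPM in mdx and 204, 200.09 and 241 CPM in IL5Tg. The 3 groups did not overlap with one another, with mdx_IL5Tg highest and mdx lowest. Per1 was 1.87-fold higher in mdx_IL5Tg than in mdx (log2 0.90 ± 0.16, edgeR adjusted p = 0.00335). Against IL5Tg the log2 fold change was 0.53 ± 0.15 and did not pass (edgeR adjusted p = 0.0615), though it passed in 6 of 19 alternatives. In mdx against IL5Tg it was -0.37 ± 0.15 (edgeR adjusted p = 0.109). The difference from mdx passed under all 19 alternative settings, at log2 0.58 to 1.12.

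Tsc22d3 (chrX:140539528-140600659, minus strand) encodes GILZ, a leucine zipper protein that binds and inhibits NF-kappaB and AP-1. It had 290.15, 242 and 258 CPM in mdx_IL5Tg, against 130, 189 and 151 CPM in mdx and 173, 180 and 262 CPM in IL5Tg. The mdx_IL5Tg libraries all stood above the mdx libraries, while IL5Tg S9 reached the mdx_IL5Tg range and the other IL5Tg libraries lay within the mdx range. Tsc22d3 was higher in mdx_IL5Tg than in mdx by log2 0.75 ± 0.19 (edgeR adjusted p = 0.0194). The call ended with library totals only (log2 0.44, edgeR adjusted p = 0.0654), without mdx_IL5Tg S1 (0.77, adjusted p = 0.0618) and without mdx S4 (0.70, adjusted p = 0.0571). The log2 fold change against IL5Tg was 0.36 ± 0.19 (edgeR adjusted p = 0.242), and for mdx it was -0.39 ± 0.19 against IL5Tg (edgeR adjusted p = 0.166).

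Sgk1 (chr10:21882184-21999903, plus strand) is a serine/threonine kinase that regulates ion channels and FOXO factors, and 1 of its 6 promoter windows holds the glucocorticoid element. It had 275, 252 and 219 CPM in mdx_IL5Tg, 223, 189 and 180.01 CPM in mdx, and 165, 163 and 181 CPM in IL5Tg. All mdx_IL5Tg libraries were above all IL5Tg libraries, and mdx lay between with overlap on both sides. Sgk1 was 1.47-fold higher in mdx_IL5Tg than in IL5Tg (log2 0.55 ± 0.14, edgeR adjusted p = 0.0376). The call ended with library totals only (log2 0.34, edgeR adjusted p = 0.141) and on leaving out mdx_IL5Tg S1 (adjusted p = 0.153), mdx_IL5Tg S2 (0.0917), IL5Tg S7 (0.0770), IL5Tg S8 (0.0798) or IL5Tg S9 (0.0660). Against mdx the log2 fold change was 0.34 ± 0.13 (edgeR adjusted p = 0.0983), and for mdx it was 0.22 ± 0.13 against IL5Tg (edgeR adjusted p = 0.267).

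Klf9 (chr19:23141226-23168134, plus strand) is a Krüppel-like transcription factor induced by glucocorticoid and thyroid hormone. It had 23.2, 31.5 and 20.05 CPM in mdx_IL5Tg, against 33.5, 29.8 and 36.6 CPM in mdx and 34.8, 26.5 and 30.2 CPM in IL5Tg. Libraries mdx_IL5Tg S1 and S3 were the lowest of the 9, while S2 lay within both other groups. The log2 fold change was -0.42 ± 0.19 against mdx (edgeR adjusted p = 0.129) and -0.29 ± 0.19 against IL5Tg (edgeR adjusted p = 0.338). For mdx against IL5Tg it was 0.13 ± 0.19 (edgeR adjusted p = 0.649).

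Zbtb16 (chr9:48654297-48836222, minus strand) encodes PLZF, a zinc-finger repressor strongly induced by glucocorticoids in several tissues and also a defining factor of innate-like lymphocytes. It had 33.9, 28.8 and 27.4 CPM in mdx_IL5Tg, against 48.3, 62.7 and 55.7 CPM in mdx and 30.7, 26.7 and 35.7 CPM in IL5Tg. All 3 mdx libraries stood above all 6 transgenic libraries, and mdx_IL5Tg and IL5Tg overlapped. Zbtb16 was lower in mdx_IL5Tg than in mdx, where it was 1.85-fold higher (log2 -0.89 ± 0.16, edgeR adjusted p = 0.00392). It was 1.79-fold higher in mdx than in IL5Tg (log2 0.84 ± 0.16, edgeR adjusted p = 0.00467). In mdx_IL5Tg against IL5Tg the log2 fold change was -0.049 ± 0.16 (edgeR adjusted p = 0.873). Both calls involving mdx passed under all 19 alternative settings, at log2 -1.20 to -0.73 and 0.68 to 0.93. The T, NK and innate lymphoid markers, 6 of 14 of which passed the filter, summed to 4.44 to 7.33 CPM in mdx_IL5Tg, 10.9 to 14.7 CPM in mdx and 6.39 to 12.3 CPM in IL5Tg, with Ncr1 at 0 in every mdx_IL5Tg and IL5Tg library. Thy1 alone gave 10.2, 8.33 and 7.07 CPM of the mdx sums, and the markers did not move together. In mdx_IL5Tg against mdx, Cd3d rose while Il17rb and Thy1 fell. For mdx against IL5Tg, Cd4 and Thy1 rose while Cd3d and Nkg7 fell. Macrophage and fibroblast sums moved the same way as Zbtb16 between mdx and the other groups, and their part in its difference was not tested.

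Mt1 and Mt2 (chr8:94179082-94180327 and chr8:94172664-94173568, both plus strand) encode metallothioneins, small proteins that bind zinc and copper and buffer oxidants. The genes are neighbours with starts 6418 bases apart. Mt2 had 4.31, 8.61 and 4.28 CPM in mdx_IL5Tg, against 17.9, 6.43 and 20.2 CPM in mdx and 8.86, 6.49 and 9.36 CPM in IL5Tg. The groups overlapped, because mdx_IL5Tg S2 was above mdx S5, while mdx S4 and S6 stood above all other libraries. Mt2 was lower in mdx_IL5Tg than in mdx (log2 -1.38 ± 0.41, edgeR adjusted p = 0.0367). Against IL5Tg the log2 fold change was -0.52 ± 0.41 (edgeR adjusted p = 0.434). Leaving out 1 library gave log2 values against mdx from -1.73 (without mdx S5) to -0.98 (without mdx S6). The call against mdx ended in 8 of 19 alternatives, the fit of the compared groups only (log2 -1.27, edgeR adjusted p = 0.083) and 7 that left out 1 library each: mdx_IL5Tg S1 (adjusted p = 0.159) or S3 (0.117), mdx S4 (0.126) or S6 (0.149), and IL5Tg S7 (0.0635), S8 (0.0531) or S9 (0.0639).

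Mt1 had 7.999, 10.9 and 5.59 CPM in mdx_IL5Tg, against 17.2, 9.77 and 19.05 CPM in mdx and 11.2, 6.04 and 9.21 CPM in IL5Tg. Here too mdx S4 and S6 were the highest of the 9 libraries, and mdx S5 lay within the range of the transgenic ones. The log2 fold change of mdx_IL5Tg against mdx was -0.91 ± 0.32 and did not pass (edgeR adjusted p = 0.0670), though it passed in 8 of 19 alternatives, at an adjusted p down to 0.002, and against IL5Tg it was -0.11 ± 0.32 (edgeR adjusted p = 0.858). For mdx against IL5Tg it was 0.80 ± 0.33 for Mt1 (edgeR adjusted p = 0.102) and 0.85 ± 0.41 for Mt2 (edgeR adjusted p = 0.157). The ratio of Mt2 to Mt1 CPM was 0.538, 0.794 and 0.766 in mdx_IL5Tg, 1.04, 0.658 and 1.06 in mdx, and 0.794, 1.08 and 1.02 in IL5Tg. Mt2 shares 432 exonic bases with the antisense gene Gm45774, which had 6 counts over the 9 libraries against 3337 for Mt2.

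**Figure D3:**
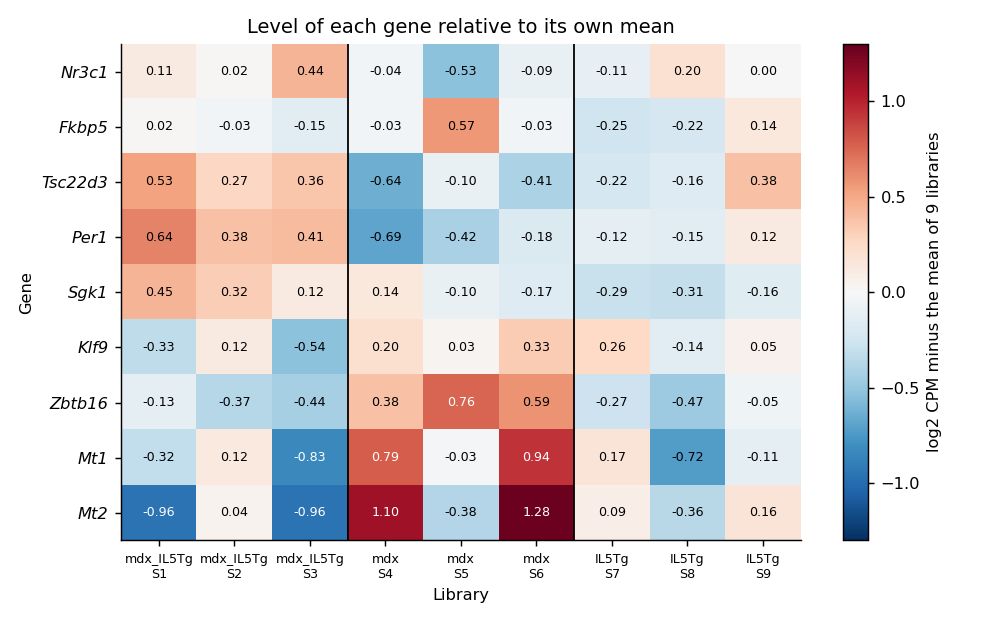
Heat map of log2 CPM of each gene (rows) in each library (columns), minus that gene's mean over the 9 libraries, with the value in each cell. Per1, Tsc22d3 and Sgk1 are positive in all 3 mdx_IL5Tg libraries, and Zbtb16 is positive in all 3 mdx libraries and negative in all 6 others.

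**Figure D4:**
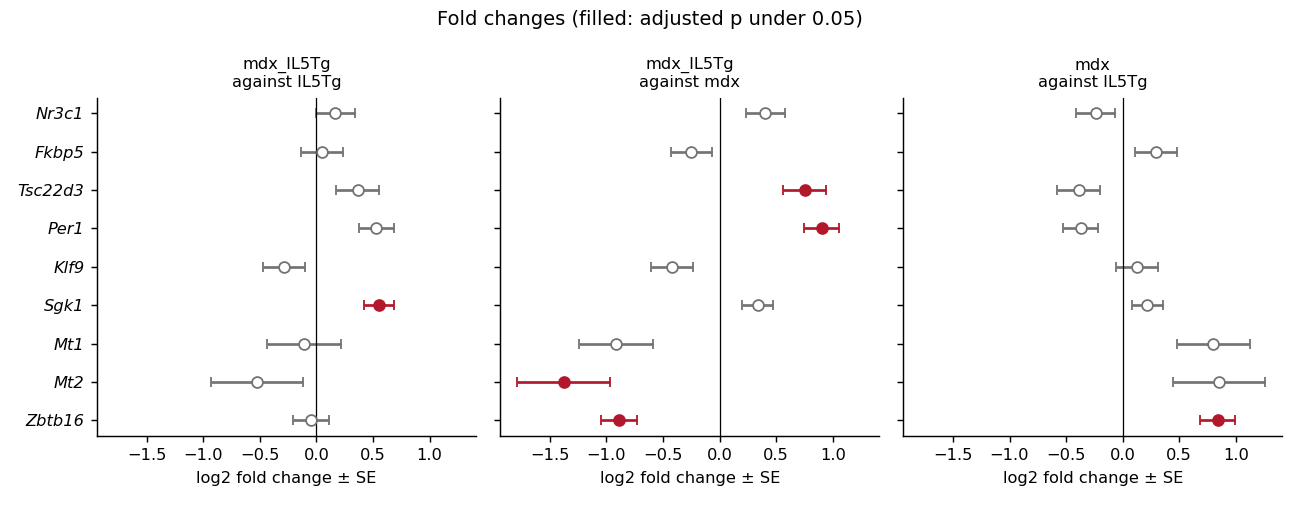
Log2 fold change with its standard error for the 9 genes in mdx_IL5Tg against IL5Tg, mdx_IL5Tg against mdx and mdx against IL5Tg, with filled points past an edgeR adjusted p of 0.05. In mdx_IL5Tg against mdx, Per1 (0.90) and Tsc22d3 (0.75) are filled to the right of 0 and Mt2 (-1.38) and Zbtb16 (-0.89) to the left.

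The receptor's machinery, 21 chaperones, cofactors, steroid enzymes and exporters of which 20 passed the filter, gave counts of calls near the share of all genes. Of these, 1 rose and 2 fell in mdx_IL5Tg against mdx, where 21.6% of all genes passed, and 1 fell in mdx_IL5Tg against IL5Tg, where 7.22% did. Another count, 1 higher and 3 lower in mdx against IL5Tg, stood beside 20.8% of all genes. Cyp11a1, which starts steroid synthesis by making pregnenolone, had 50.6, 65.2 and 52.2 CPM in mdx_IL5Tg, 0.921, 0.536 and 0.820 CPM in mdx, and 89.5, 94.8 and 76.9 CPM in IL5Tg. It was below 1 CPM in every mdx library and above 50 CPM in every transgenic one. Its log2 fold change was 6.17 in mdx_IL5Tg against mdx (edgeR adjusted p = 9.697e-08). Set against IL5Tg, mdx gave a log2 fold change of -6.81 (edgeR adjusted p = 6.41e-08). It was also lower in mdx_IL5Tg than in IL5Tg (log2 -0.64, edgeR adjusted p = 0.0466), a call that ended on leaving out any 1 library except mdx S5, with edgeR adjusted p up to 0.227.

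Hsp90aa1, a chaperone that holds the unliganded receptor, was lower in mdx than in IL5Tg, with means of 597 ± 40.1 CPM in mdx and 1222 ± 350.4 CPM in IL5Tg (SD, n = 3 each, log2 -1.03, edgeR adjusted p = 0.00595). Abcb1b, an exporter that carries steroids, fell by 1.66 on the log2 scale in mdx_IL5Tg against mdx (edgeR adjusted p = 0.0176). That call ended on leaving out mdx_IL5Tg S1, mdx_IL5Tg S3, mdx S4 or mdx S6, at an edgeR adjusted p of up to 0.0873.

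Of 30 further genes known to be induced by glucocorticoids, 28 passed the filter. Of these, 10 rose and 7 fell in mdx_IL5Tg against mdx, beside 10.1% and 11.5% of all genes, with a median log2 fold change of -0.050 beside -0.13 over all genes. Against IL5Tg, 3 rose in mdx_IL5Tg and 25 did not pass, beside 4.35% of all genes higher, with medians of 0.37 in the list and -0.050 over all genes. When mdx was set against IL5Tg, 6 rose and 2 fell, beside 11.8% and 8.96% of all genes, with medians of 0.18 and 0.013. Over the 19 alternatives the counts ranged from 5 to 12 higher and 1 to 10 lower in mdx_IL5Tg against mdx, and from 1 to 8 higher in mdx_IL5Tg against IL5Tg.

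Il1r2, a decoy receptor that binds interleukin-1 without signalling, had 286, 258 and 261 CPM in mdx_IL5Tg, against 52.2, 40.0 and 49.4 CPM in mdx and 82.5, 60.2 and 55.4 CPM in IL5Tg. The mdx_IL5Tg libraries stood far above both other groups. It rose by log2 2.51 against mdx (edgeR adjusted p = 9.4e-06) and 2.02 against IL5Tg (edgeR adjusted p = 0.000538). Glul, glutamine synthetase, averaged 567 ± 43.1 CPM in mdx_IL5Tg and 273 ± 37.7 CPM in mdx (log2 1.05, edgeR adjusted p = 0.00254). Cdkn1a, the cell-cycle inhibitor p21, averaged 753 ± 76.5 CPM in mdx_IL5Tg and 369 ± 68.3 CPM in mdx (log2 1.03, edgeR adjusted p = 0.00337).

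Other induced targets were highest in mdx. Nfkbia, the inhibitor of NF-kappaB that NF-kappaB also induces, averaged 467 ± 145 CPM in mdx and 164 ± 30.5 CPM in IL5Tg (log2 1.51, edgeR adjusted p = 0.00224). Angptl4, an inhibitor of lipoprotein lipase, averaged 9.33 ± 4.93 CPM in mdx_IL5Tg, 25.2 ± 3.29 CPM in mdx and 2.41 ± 0.560 CPM in IL5Tg. Il7r, a lymphocyte cytokine receptor chain, averaged 11.5 ± 6.64 CPM in mdx and 1.58 ± 0.777 CPM in IL5Tg (log2 2.86, edgeR adjusted p = 0.00227). The macrophage and fibroblast sums were also highest in mdx, and their part in these differences was not tested.

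**Figure D5:**
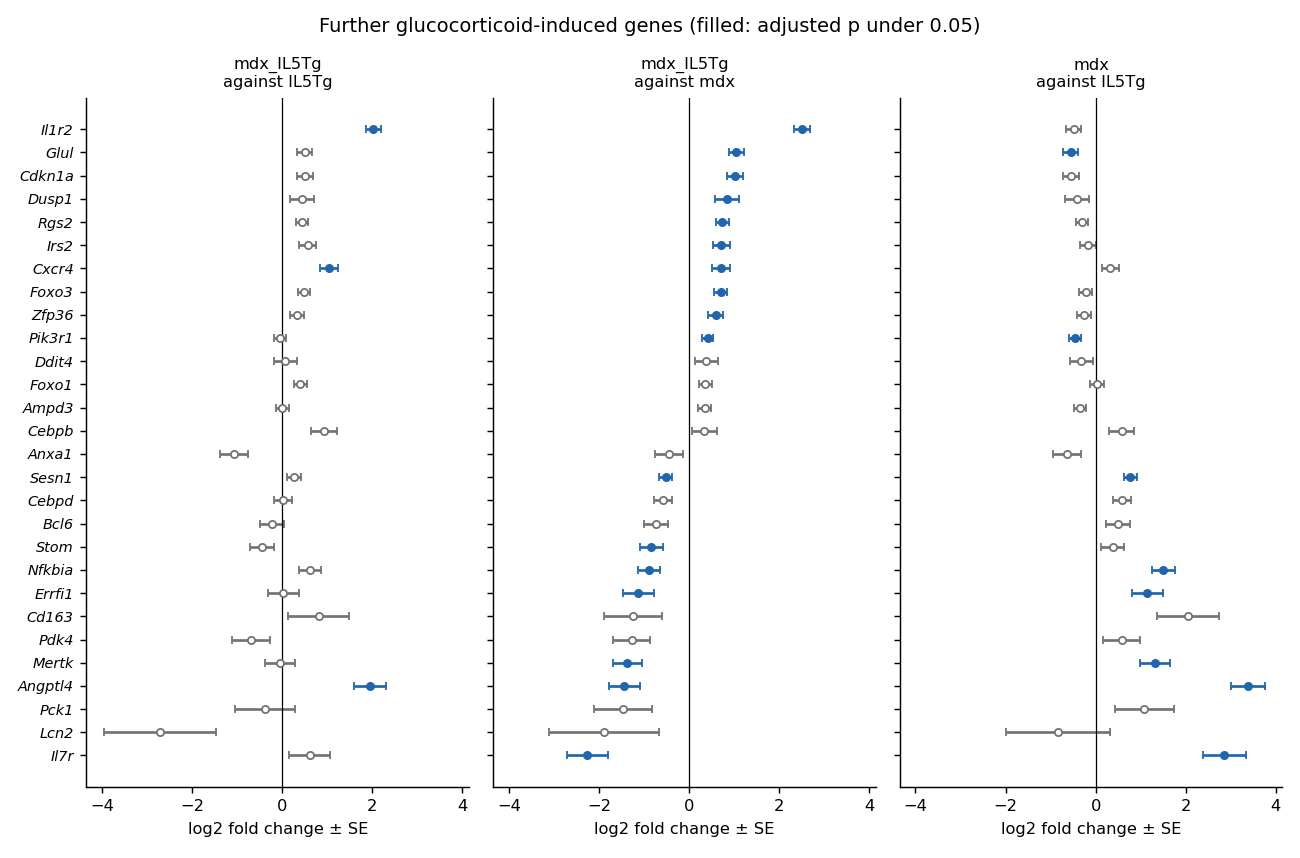
Log2 fold change with its standard error of the 28 further glucocorticoid-induced genes in the 3 comparisons, ordered by mdx_IL5Tg against mdx, with filled points past an edgeR adjusted p of 0.05. The list holds genes higher and lower: in mdx_IL5Tg against mdx 10 are filled to the right and 7 to the left, with Il1r2 at 2.51 the highest and Il7r the lowest.

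The circadian list, in which Per1 has its other role, holds 17 genes, all of which passed the filter. Among them, 4 rose and 2 fell in mdx_IL5Tg against mdx, where 21.6% of all genes passed, and 1 rose and 2 fell in mdx against IL5Tg, where 20.8% did. Over the alternatives the counts against mdx ranged from 1 to 6 higher and 1 to 4 lower. Between mdx_IL5Tg and IL5Tg edgeR called 0, with 4 at an unadjusted p under 0.05, while DESeq2 called 3. Nfil3, a repressor needed for innate lymphoid and other leukocyte lineages, had 307, 282 and 301 CPM in mdx_IL5Tg, against 108, 116 and 117 CPM in mdx and 191, 157 and 247 CPM in IL5Tg. Its groups did not overlap, with mdx_IL5Tg highest and mdx lowest as for Per1, and it was higher in mdx_IL5Tg than in mdx by log2 1.38 (edgeR adjusted p = 0.000326). Bhlhe40, a repressor of clock output, also rose in mdx_IL5Tg against mdx (log2 0.69, edgeR adjusted p = 0.00557, and 0.0825 with library totals only), while its paralog Bhlhe41 fell by 2.16 on the log2 scale (edgeR adjusted p = 0.00519). Per2, a further clock repressor, averaged 19.4 ± 1.81 CPM in mdx_IL5Tg and 13.3 ± 3.84 CPM in mdx and did not pass (log2 0.54, edgeR adjusted p = 0.0908).

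The metal list sets Mt1 and Mt2 beside 11 genes of zinc handling, glutathione synthesis (Gclc and Gclm) and haem breakdown (Hmox1), 9 of which passed the filter. Among them, 1 fell in mdx_IL5Tg against mdx, 2 rose in mdx_IL5Tg against IL5Tg, and 3 rose in mdx against IL5Tg, beside 21.6%, 7.22% and 20.8% of all genes passing in those comparisons. The calls were all of zinc transporters. Slc39a14, a zinc importer, had 15.7, 18.6 and 11.6 CPM in mdx_IL5Tg, against 35.1, 31.1 and 29.8 CPM in mdx and 12.9, 12.9 and 16.9 CPM in IL5Tg. All mdx libraries, S5 included, stood above the rest (log2 -1.07 in mdx_IL5Tg against mdx, edgeR adjusted p = 0.00459). Slc30a1, a zinc exporter and a known target of the metal-sensing factor MTF1, averaged 26.8 ± 2.35 CPM in mdx_IL5Tg, 29.6 ± 6.31 CPM in mdx and 15.0 ± 1.78 CPM in IL5Tg, and rose in mdx against IL5Tg (log2 0.98, edgeR adjusted p = 0.00403). Mtf1 itself averaged 33.2 ± 2.15, 34.7 ± 2.60 and 31.4 ± 2.80 CPM in mdx_IL5Tg, mdx and IL5Tg.

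For each of the 9 genes, the genes most like it in log2 CPM over the 9 libraries were taken by Pearson's r, as a description over libraries that share 3 group means. Predicted and clone-named genes were left out, as were microRNA, small nucleolar, mitochondrial and ribosomal protein genes. Each r shown is among the highest of all the genes searched, so its size reflects this choice too. Per1 was most like Narf (r = 0.990) and Gtpbp1 (0.987), Tsc22d3 like Ppp1r15b (0.985) and Gramd4 (0.984), and Nr3c1 like Cdk17 (0.979) and Klhl28 (0.976). Zbtb16 was most like Polrmt (0.979) and Larp1 (0.975), Mt1 like Synpo (0.986) and Tnfaip1 (0.984), and Mt2 like Abi3bp (0.975) and Serping1 (0.972). For Sgk1 the values were lower, with Cops8 at 0.959 and Grn at 0.958. Klf9 was most like Cd200 (0.994) and Mall (0.985), and Fkbp5 like Rnd2 (0.968) and Leng1 (0.940).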

How the data were processed

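Gene values are expected counts, which the authors made with RSEM and deposited without scaling. The submitters' processing notes list the tools cutadapt 2.10, STAR 2.5.3, RSEM 1.3.0 and limma, and the genome mm10. How they were set, which annotation was used and whether strand was used in counting are not given in the labels or notes used here. Because RSEM divides a read that matches more than 1 gene between them, counts of related or overlapping genes are uncertain. Values that were not whole (6.03%) were rounded.

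Libraries are named by the S number in the column names; no label holds these numbers, so columns were tied to groups and not paired. The design text calls the replicates biological. Pearson's r between libraries of a group was 0.951 to 0.985 (log2 CPM). Value columns left unused numbered 0.

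Genes were kept by filterByExpr (minimum count 10) and scaled by TMM. edgeR 4.0.16 (R 4.3.3) fitted all 9 libraries with 1 mean per group by robust quasi-likelihood. P-values were adjusted by Benjamini-Hochberg over 15886 genes with a threshold of 0.05. Differences are log2 ratios, with standard errors recovered from the F statistic. Lengths are union exons of GENCODE M21, which held 54079 of the gene identifiers. The 19 alternatives were DESeq2 1.42.0, limma 3.58.1 voom, voom with sample quality weights, scaling by RLE or by library totals alone, no filter, a floor of 50 counts in 3 libraries, mitochondrial, haemoglobin and small RNA genes removed, a fit of only the compared groups, each library left out, and IL5Tg S7 with mdx S5 left out. P-values judge a difference between group means against a spread estimated from these libraries and moderated across genes.

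The 9 genes and all lists were chosen with earlier results of these data known. Genes named from a list are up to 3 per comparison with the smallest p past the threshold, and 2 genes most alike are given per response gene. Per2 and Mtf1 were named after their values were seen. A gene that the rule names in 1 list is not reported here.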

Additional observations from a re-analysis of the deposited data

How the results depend on the processing

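Over 513 recomputed values (27 fold changes, 19 alternatives), 450 kept direction and side of the threshold, 17 lost the call, 31 gained one and 15 changed sign. The cause was not tested. In mdx_IL5Tg against IL5Tg 1 of the 9 genes passed (2 at an unadjusted p under 0.05), while DESeq2, quality weights, no filter and the compared groups only gave 2, edgeR with library totals 0, and leaving out 1 library 0 to 2. All genes numbered 1147, against 2464 with DESeq2, 4294 with quality weights, 1816 with the compared groups only, 1739 without IL5Tg S7 and mdx S5, and 110 to 2641 without 1 library. In mdx_IL5Tg against mdx 4 passed, 7 with quality weights and 2 to 5 without 1 library, and all genes numbered 3433, 6929 with quality weights and 1521 to 4057 without 1 library. In mdx against IL5Tg 1 passed, 5 with quality weights, 2 with no filter, 4 without S7 and S5, and 1 to 3 without 1 library. All genes there numbered 3298, 5498 with quality weights and 1961 to 3837 without 1 library. With library totals the share of calls that were higher was 24.1% in mdx_IL5Tg against IL5Tg, 15.7% in mdx_IL5Tg against mdx and 70.7% in mdx against IL5Tg, beside 60.2%, 46.7% and 56.8% with TMM, and the median of all genes was -0.27, -0.46 and 0.12 log2. In mdx_IL5Tg against IL5Tg the sign changed for Nr3c1 with totals (-0.051), and for Fkbp5 with quality weights (-0.041), totals (-0.17) and without S7 and S5 (-0.019). It changed there for Mt1 without S7 and S5 (0.10) and without 1 library (-0.32 to 0.16), and for Zbtb16 without 1 library (-0.096 to 0.11). In mdx against IL5Tg it changed for Fkbp5 with quality weights (-0.012) and without S7 and S5 (-0.0027), and for Klf9 without 1 library (-0.0051 to 0.21). None of these values passed the threshold. Counts of the low genes Mt1 and Mt2 (3734 and 3337 over the 9 libraries) were smaller than those of the other genes and their standard errors larger. No paired analysis was possible because the columns carry no replicate number of the labels.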

Other observations

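Genes known to be repressed by glucocorticoids, 16 inflammatory mediators of which 15 passed the filter, had more members higher than lower against IL5Tg. Of these, 9 rose in mdx against IL5Tg, beside 11.8% of all genes, with a median log2 fold change of 0.99. Against IL5Tg, 5 rose in mdx_IL5Tg, beside 4.35% of all genes, with a median of 0.76, and in mdx_IL5Tg against mdx 4 fell, beside 11.5%, with a median of -0.53. Over the 19 alternatives these counts ranged from 5 to 12, from 0 (without mdx_IL5Tg S1) to 7 and from 1 to 7. Il1b, a pyrogenic cytokine, averaged 429.9 ± 90.03 CPM in mdx_IL5Tg, 619 ± 192 CPM in mdx and 151 ± 90.1 CPM in IL5Tg, and was higher in mdx than in IL5Tg by log2 2.04 (edgeR adjusted p = 0.00429). Il1a, its relative, rose in mdx_IL5Tg against IL5Tg (log2 1.91, edgeR adjusted p = 0.0154), as did Cxcl2, a neutrophil chemokine (1.53, adjusted p = 0.016). Without mdx_IL5Tg S1 neither call held, at an edgeR adjusted p of 0.0629 for Cxcl2, and with no filter Il1a was at 0.0645. Icam1, a leukocyte adhesion molecule, averaged 103 ± 31.2 CPM in mdx_IL5Tg and 245 ± 46.9 CPM in mdx (log2 -1.26, edgeR adjusted p = 0.00479). Macrophage marker sums, given in the report, were highest in mdx as well, and their part was not tested.

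Relatives of the response genes, 16 genes of which 15 passed the filter, had calls in both directions. Of these, 3 rose and 3 fell in mdx_IL5Tg against mdx, beside 10.1% and 11.5% of all genes, with 0 to 4 higher and 1 to 5 lower over the alternatives. Klf2, a factor of leukocyte quiescence, averaged 236 ± 26.8 CPM in mdx_IL5Tg and 140.5 ± 27.04 CPM in mdx (log2 0.75, edgeR adjusted p = 0.0128, and 0.0585 with library totals only). Zbtb20, a zinc-finger repressor of the family of Zbtb16, averaged 28.0 ± 5.12 CPM in mdx_IL5Tg, 71.9 ± 21.7 CPM in mdx and 57.8 ± 10.8 CPM in IL5Tg, and fell by 1.36 on the log2 scale in mdx_IL5Tg against mdx (edgeR adjusted p = 0.00390). Sgk3, a kinase related to Sgk1, averaged 16.6 ± 2.71 CPM in mdx and 33.1 ± 4.58 CPM in IL5Tg (log2 -0.99, edgeR adjusted p = 0.0110).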
